A study of Arabidopsis thaliana with 2 samples.

Results

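Arabidopsis thaliana stem RNA was sequenced to ask which transcripts differ between hdt1 mutant plants and wild-type plants, and the genes of the chloroplast genome are described here. Chloroplast genes were taken as the loci whose identifier starts with ATCG and whose mean FPKM over both libraries was above 0, which gave 100 members among 33602 loci in the table. A further 33 chloroplast loci were at 0 in both libraries. The hdt1 library came from mutants in HDT1, which encodes a plant-specific histone deacetylase of the HD2 type, and the wild-type library from plants without the mutation. Both were made from total RNA of the main stem, collected 35 days after flowering from greenhouse plants kept at 20 °C with 16 h of light and 8 h of dark. The allele, the ecotype and the number of plants in a library are not given in the labels. There was 1 library per genotype, so genotype and library cannot be told apart, no difference has a replicate check and no test was made. Below, hdt1 and the wild type stand for these single libraries.

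The chloroplast genome descends from that of a cyanobacterium and still encodes core subunits of the photosynthetic complexes, the large subunit of Rubisco, part of a bacterial-type RNA polymerase and part of the organelle's ribosomes. The remaining subunits of these complexes are encoded in the nucleus and imported. Chloroplast genes are transcribed by the bacterial-type polymerase, which nuclear-encoded sigma factors direct to promoters, and by nuclear-encoded phage-type polymerases. Many lie in polycistronic transcription units whose RNAs are cut into shorter messages and stabilised by nuclear-encoded RNA-binding proteins. In stems, chloroplasts are found mainly in the green cells of the cortex.

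Gene names were inferred, because the table gives only locus identifiers and the annotation used, RefSeq TAIR10.1, labels chloroplast genes in another way. The FPKM values imply a whole number of bases for each gene, and this length was matched to the exon lengths of the 129 chloroplast genes in RefSeq. Of the 100 members, 35 were named by length alone and 57 by length together with their place between matched neighbours, which also separated genes of equal length such as psbA and psbD. For 8 members no single gene fitted, and 4 of these could be assigned to tRNA genes only. No member was matched to ndhB, rps7, rpl23 or ycf2, which RefSeq lists in repeated copies whose reads cannot be told apart. Nor was any member matched to matK, ycf3 or ndhD, which RefSeq lists in a single copy. The NDH class below thus lacks ndhD as well as ndhB. By place, the unnamed ATCG00040, ATCG00360 and ATCG01050 stand where RefSeq has matK, ycf3 and ndhD, but they were left without a name. The absence of all these gene names below does not show that the genes were not expressed. The annotation describes 5 members by their ATCG identifier, and all 5 descriptions named the same gene as the match, ndhK under its former name as a photosystem II protein. The table gives no coordinates and its genome build is not named, so positions below are those of RefSeq TAIR10.1 only.

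The sequences shown belong to the chloroplast genes of highest wild-type FPKM and to psbA. The reads of psbA differed most in number between the libraries. The coding sequence of psbM, a small membrane subunit of photosystem II, lies on the chloroplast chromosome at Pltd:28707-28811, minus strand, with its start and stop codons in capitals. That of rpl32, a protein of the large ribosomal subunit, lies at Pltd:113449-113607 on the plus strand, marked in the same way. ATCG00390, a tRNA-Thr gene, lies at Pltd:46213-46285 on the minus strand. For psbA, which encodes the D1 protein of the photosystem II reaction centre, 150 bases that end 101 bases before the gene are shown (Pltd:1545-1694, minus strand). The motif in capitals there, TTGACA, has the letters of the upstream element of bacterial promoters and begins 115 bases before the gene.
psbM: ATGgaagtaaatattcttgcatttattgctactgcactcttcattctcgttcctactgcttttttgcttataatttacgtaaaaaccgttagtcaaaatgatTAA
rpl32: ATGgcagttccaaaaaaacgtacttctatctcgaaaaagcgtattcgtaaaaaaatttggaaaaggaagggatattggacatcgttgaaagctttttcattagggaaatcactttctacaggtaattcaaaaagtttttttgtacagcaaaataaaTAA
ATCG00390 tRNA-Thr: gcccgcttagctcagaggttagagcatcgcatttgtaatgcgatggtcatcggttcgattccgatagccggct
psbA upstream: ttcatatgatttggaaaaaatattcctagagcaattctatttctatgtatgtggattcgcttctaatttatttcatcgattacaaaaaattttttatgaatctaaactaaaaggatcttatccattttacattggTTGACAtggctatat

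The deposited values imply totals of 23070249 counted reads in hdt1 and 21728500 in the wild type. Chloroplast members took 0.342% of them in hdt1 (exact binomial 95% interval 0.340% to 0.345%) and 0.317% in the wild type (0.315% to 0.320%). Fewer cells of a type and less RNA per cell cannot be told apart in such bulk samples. HDT1 itself was at 5.19 FPKM in hdt1 and 52.6 FPKM in the wild type, 10.2-fold lower (8.42 to 12.3). The cellulose synthase genes CESA4, IRX3 and IRX1 of fibre and xylem walls were 2.65-fold, 3.59-fold and 2.55-fold higher in hdt1, with summed levels of 71.4 FPKM in hdt1 and 24.2 FPKM in the wild type, and the part of tissue make-up in the chloroplast values was not tested. Flower and seed markers were at or below 1.63 FPKM. Folds are ratios of FPKM values, and the interval after each is an exact conditional (Clopper-Pearson) 95% interval from the reads. Intervals cover counting error only. The log2 ratio and the 2-fold limit are on the scale of FPKM + 1, which understates differences of low genes.

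The counted chloroplast reads of both libraries were dominated by a few genes. Any poly(A) selection was not given, and the few rRNA reads are described below, so these are not shares of all chloroplast RNA. Together psbM, psbA, atpB and rpl32 held 68.7% of the chloroplast reads in hdt1 and 68.4% in the wild type. By level, psbM stood first with 6470 FPKM in hdt1 and 7261 FPKM in the wild type. Next came rpl32, with 1857 FPKM in hdt1 and 2123 FPKM in the wild type. These levels are per length, and both genes are short. The library protocol selected cDNA fragments of 150 to 200 bp, 36 members are under 150 bases long, and the part of fragment selection in their levels was not tested.

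Behind these, psbA was at 818 FPKM in hdt1 and 483 FPKM in the wild type. The tRNA-Thr gene ATCG00390 was at 508 FPKM in hdt1 and 668 FPKM in the wild type. The epsilon and beta subunits of the ATP synthase followed, atpE with 474 and atpB with 338 FPKM in hdt1, against 524 and 371 FPKM in the wild type. The 5 highest genes by level were the same in both libraries, as were 9 of the 10 highest and 18 of the 20 highest. In rank, psbA stood at 3 in hdt1 and at 5 in the wild type. At the other end, the 4 rRNA members held 11 reads in hdt1 and 8 in the wild type. Their levels were at most 0.116 FPKM, below any ribosomal protein gene except rpl2. All 4 and rpl2 lie in the inverted repeat, where reads of the 2 copies cannot be told apart. How such reads were counted is not given, so these levels say little about the amount of RNA.

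**Figure D1:**
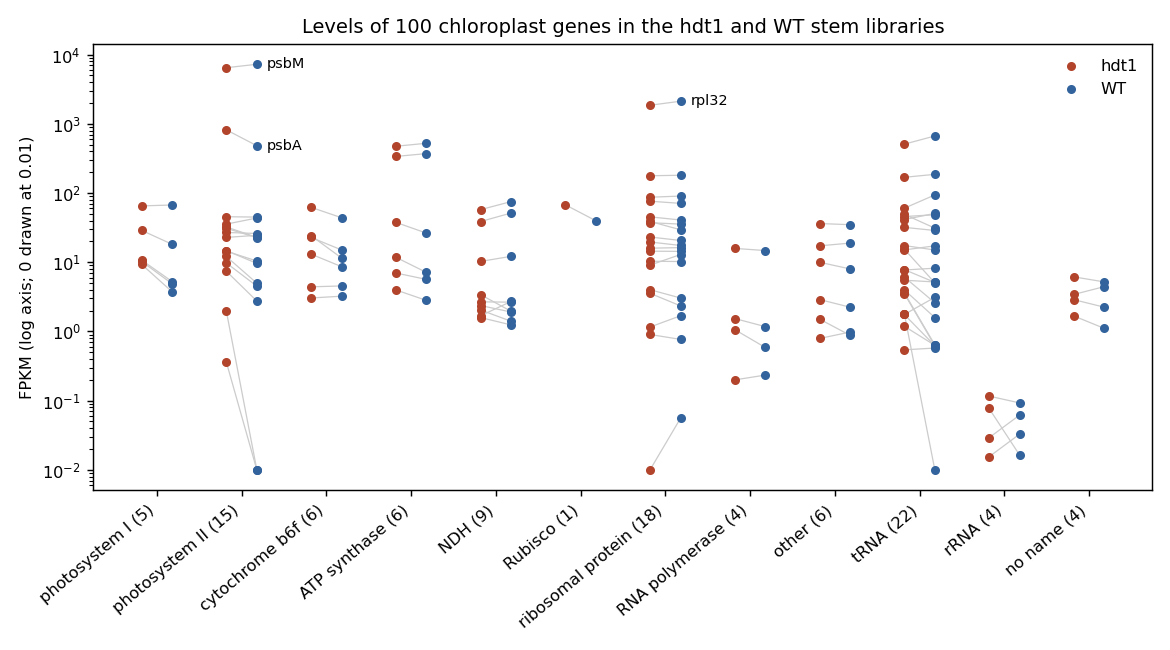
FPKM of the 100 chloroplast genes (log axis) by class, hdt1 library in red on the left and wild-type library in blue on the right of each class, with a line joining the values of a gene and the number of genes in brackets. Most genes lie between 1 and 100 FPKM in both libraries, while psbM and rpl32 stand highest in both.

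By the median of single genes, chloroplast RNA was slightly higher in hdt1, whereas the summed level, most of it psbM and rpl32, was lower, with 12379.5 FPKM in hdt1 and 13214.5 FPKM in the wild type. The median log2 ratio was 0.49 over the genes of the photosystems, cytochrome b6f, ATP synthase and Rubisco, 0.04 over ribosomal protein genes and 0.01 over NDH genes. Of 100 members, the 86 that averaged 1 FPKM or more were compared. Of these 86, 4 were under 1 FPKM in the wild type and 0 were under 1 FPKM in hdt1. The median log2 ratio of the 86 was 0.20, with 58 members above 0 and 28 below. The median over all 17811 loci compared was −0.03, and 46.0% of those loci were above 0. Without the filter, 66 of the 100 members were above 0 and 34 below. The median over nuclear loci was −0.03 and that over 47 mitochondrial loci −0.13.

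At least 2-fold higher on the FPKM + 1 scale were 7 of the 86 members (8.14%), against 2.32% of all loci compared. No member was 2-fold lower, against 0.741% of all loci. The 7 were petB, psaC, psbH, psbL and the tRNA genes trnF, ATCG00260 (trnT) and trnfM. Both trnT and trnfM were under 1 FPKM in the wild type and were compared only because of their level in hdt1. Most of the 7 rest on few reads. Of the 55 members with a mean of at least 50 reads, a limit chosen after the values were seen, 1 (petB) was 2-fold higher, and their median was 0.05 on the log2 scale. Of the 31 compared members with fewer reads 6 were 2-fold higher. The share of all loci above or under this read limit was not computed. The count depends on the added value, with 13 members 2-fold higher when 0.1 FPKM was added (background 3.66%) and 1 when 5 FPKM was added (background 0.938%). At a limit of 1.5-fold 18 of the 86 members were higher, against 7.04% of all loci.

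Of the 86 counting intervals 21 lay above 1 (background 23.8% of all loci), 10 below 1 (27.7%), and 55 included 1. The members just inside the 2-fold limit and just outside it differed little. On the log2 scale petB stood at 1.01 inside the limit, and outside it trnG (ATCG00310) stood at 0.98 and psbT at 0.97. Summed over all members, reads per total were 1.08-fold higher in hdt1 (1.07 to 1.09). Without psbA the sum was instead lower in hdt1, at 0.960 of the wild-type value (0.949 to 0.971), so that this 1 gene set the direction of the summed reads.

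**Figure D2:**
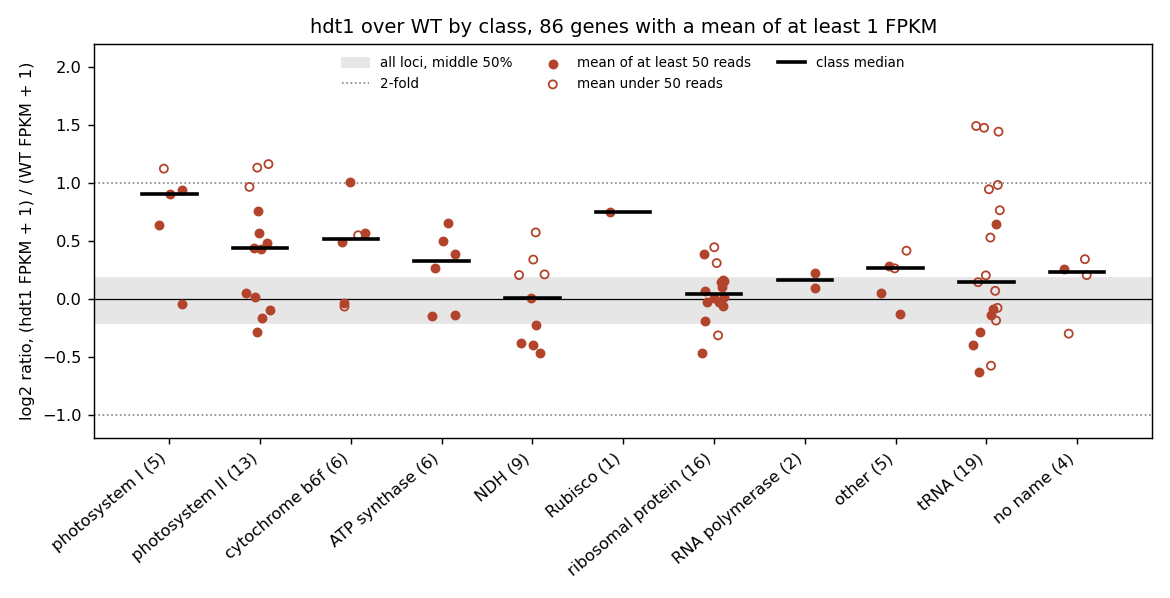
Log2 ratio of hdt1 over wild type, with 1 FPKM added, for the 86 compared chloroplast genes by class. Filled points have a mean of at least 50 reads and open points fewer, black bars are class medians, the grey band is the middle 50% of all loci and dotted lines mark 2-fold. The photosystem I median stands at 0.91, and the points past the 2-fold line are mostly open.

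Photosystem I, which passes electrons from plastocyanin to ferredoxin, had the highest class median, 0.91 on the log2 scale over 5 genes, with 4 of 5 above 0. The reaction centre genes psaA and psaB were at 10.3 and 10.8 FPKM in hdt1, against 4.88 and 5.26 FPKM in the wild type. That made psaA 2.11-fold higher (1.81 to 2.47) and psaB 2.04-fold higher (1.76 to 2.38). The iron-sulphur subunit gene psaC was at 9.34 FPKM in hdt1 and 3.74 FPKM in the wild type, 2.50-fold higher (1.47 to 4.41), from 53 and 20 reads. Each of these intervals lies above 1, although psaA and psaB stayed just under 2-fold once 1 FPKM was added.

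The small subunit gene psaI was at 28.9 FPKM in hdt1 and 18.2 FPKM in the wild type, 1.59-fold higher (1.09 to 2.35). Its counterpart psaJ did not share the difference, with 65.2 FPKM in hdt1 and 67.2 FPKM in the wild type and an interval of the fold from 0.794 to 1.19. Its log2 ratio of −0.04 was above 0 under equal FPKM sums, under centring on nuclear genes and within the chloroplast genome. Over the class, reads per total were 1.77-fold higher in hdt1 (1.62 to 1.94).

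Photosystem II, which splits water and reduces plastoquinone, was less uniform. Of 15 genes 13 were compared, with 10 above 0, a median log2 ratio of 0.44 and 2 past 2-fold. Over the 10 with a mean of at least 50 reads the median was 0.24. The D1 gene psbA, whose upstream bases are shown above, was 1.69-fold higher in hdt1 (1.65 to 1.73), from 20053 and 11152 reads. The D2 gene psbD, with 27.0 FPKM in hdt1 and 26.0 FPKM in the wild type, differed by less than its counting error (0.928 to 1.16). Genes of the inner antenna lay between them, psbB (CP47) 1.53-fold higher (1.33 to 1.77) and psbC (CP43) 1.41-fold higher (1.28 to 1.56). The annotation has psbC and psbD overlapping, so reads in the shared stretch cannot be assigned with certainty.

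Among the small subunits, psbH was at 12.1 FPKM in hdt1 and 4.98 FPKM in the wild type, 2.43-fold higher (1.5 to 4.08). For psbL, beside cytochrome b559, the values were 7.41 FPKM in hdt1 and 2.75 FPKM in the wild type, 2.69-fold higher (1.09 to 7.53), from 20 and 7 reads. The dimer subunit gene psbT was 2.17-fold higher with an interval that reaches below 1 (0.992 to 5.10). The fold of psbZ was 1.37 (1.04 to 1.80) and that of psbE, the alpha subunit of cytochrome b559, 1.39 (0.980 to 1.98).

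In the other direction, psbM was 1.12-fold lower in hdt1 (1.1 to 1.15), from 15673 and 16566 reads. The intervals of psbI, psbK and psbJ include 1. With 1.97 FPKM and 6 reads in hdt1 and no read in the wild type, psbN, an assembly factor, had a counting interval that starts at 1.11. Against a floor of 3 wild-type reads, and with the 6 hdt1 reads taken as exact, its fold was at least 1.88. It lies on the strand opposite to its neighbours psbT and psbH, and strand settings were not given. Whether its reads stem from transcripts of these neighbours was not tested. A single read of psbF was found in hdt1 and none in the wild type, which allows no fold. Photosystem II reads without psbA and psbM were 1.27-fold higher in hdt1 (1.2 to 1.35), a split made after the values were seen.

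The cytochrome b6f complex links the photosystems. Its 6 chloroplast genes had a median log2 ratio of 0.52, with 4 above 0, and reads per total were 1.57-fold higher in hdt1 (1.41 to 1.76). The cytochrome b6 gene petB was at 24.2 FPKM in hdt1 and 11.5 FPKM in the wild type, 2.1-fold higher (1.74 to 2.55), the best-covered of the 7 genes past 2-fold with 362 and 162 reads. Subunit IV (petD) was 1.51-fold higher (1.24 to 1.86) and the small subunit gene petN 1.41-fold higher (1.07 to 1.88). Cytochrome f (petA) was at 4.41 FPKM in hdt1 and 4.54 FPKM in the wild type, and its log2 ratio changed sign under 3 other scalings. For petL and petG the intervals include 1.

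The ATP synthase, which makes ATP from the proton gradient, split along its transcription units. The 4 genes of the atpI unit were higher in hdt1, atpF 1.65-fold (1.26 to 2.18), atpH 1.43-fold (1.15 to 1.78), atpA 1.42-fold (1.08 to 1.86) and atpI 1.24-fold (0.937 to 1.64). Those 4 were at 3.98 to 37.7 FPKM in hdt1 and at 2.81 to 26.4 FPKM in the wild type. The much more abundant atpB and atpE were both 1.1-fold lower in hdt1 (1.07 to 1.13 and 1.06 to 1.15). These overlap each other in the annotation. Over all 6 genes the median log2 ratio was 0.33, and because atpB and atpE hold most of the reads, summed reads were 0.921 of the wild-type value (0.902 to 0.941).

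Rubisco, the enzyme that fixes CO2, has its large subunit encoded by rbcL. It was at 67.6 FPKM in hdt1 and 39.8 FPKM in the wild type, 1.70-fold higher (1.59 to 1.82), from 2247 and 1245 reads. Its fold was close to that of psbA (1.69), while the more abundant psbM and rpl32 were lower in hdt1. Of the 50-base windows in the gene, 14.5% also occur in the nuclear or mitochondrial sequence for rbcL and 7.70% for psbA, whereas none of those in psbM, rpl32 or ATCG00390 do.

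**Figure D3:**
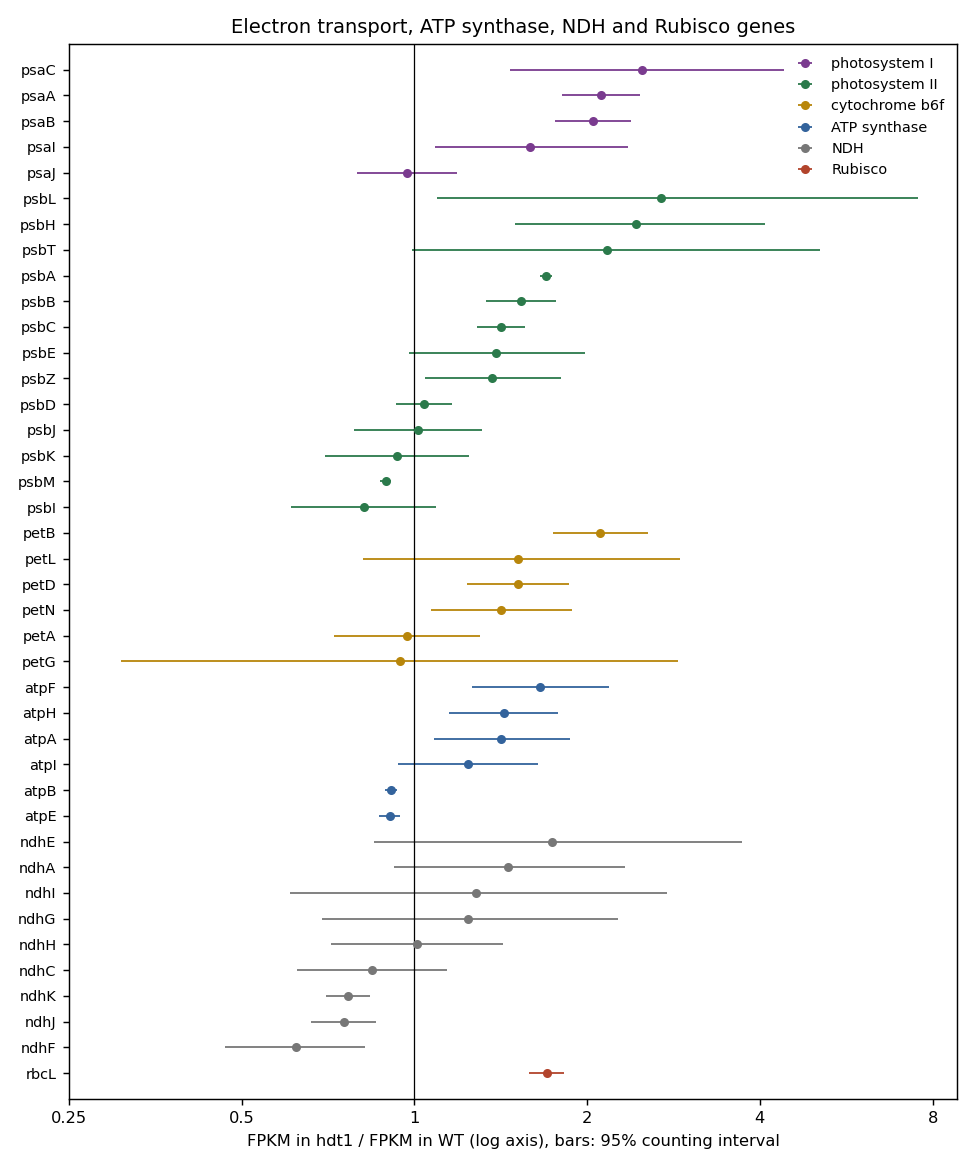
Ratio of FPKM in hdt1 to FPKM in wild type (log axis) for the compared genes of the photosystems, cytochrome b6f, ATP synthase, NDH complex and Rubisco, with bars for the 95% counting interval. Intervals of psaC, psaA, psaB, petB and psbH lie above 1, while those of atpB, atpE, psbM, ndhK, ndhJ and ndhF lie below 1.

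The NDH complex carries cyclic electron flow around photosystem I. Its 9 members had a median log2 ratio of 0.01, 5 above 0 and 4 below, and reads per total were lower in hdt1, at 0.791 of the wild-type value (0.741 to 0.844). The better covered genes were the lower ones, and the median was −0.38 over the 5 with a mean of at least 50 reads and also over the 3 with a mean of at least 5 FPKM. For ndhK the values were 57.5 FPKM in hdt1 and 75.2 FPKM in the wild type, 1.31-fold lower (1.2 to 1.43). For ndhJ they were 38.7 FPKM in hdt1 and 51.4 FPKM in the wild type, 1.33-fold lower (1.17 to 1.51).

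Their neighbour ndhC was 1.19-fold lower with an interval that includes 1 (0.877 to 1.60). At a far lower level, ndhF had 1.68 FPKM in hdt1 and 2.71 FPKM in the wild type, 1.61-fold lower (1.22 to 2.14). It overlaps another RefSeq entry of ycf1 on the opposite strand, to which no member was matched. That entry is not the ycf1 member described below, which lies elsewhere. Strand settings were not given in the sources used here. The 5 named NDH genes of the ndhH unit were ndhE, ndhA, ndhG, ndhI and ndhH. They were at 1.59 to 3.40 FPKM in hdt1 and at 1.24 to 2.65 FPKM in the wild type. All 5 log2 ratios were above 0, and each of their intervals includes 1.

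Ribosomal protein genes lay close to equal levels in both libraries. Of 18 members 16 were compared, 10 above 0 and 6 below, with a median log2 ratio of 0.04 and none past 2-fold. The highest after rpl32 was rpl16, with 178 FPKM in hdt1 and 181 FPKM in the wild type, followed by rpl14 with 86.9 FPKM in hdt1 and 90.4 FPKM in the wild type. The signs of rpl14, rpl16 and rpl33 changed under another scaling. Next, rps3 was at 76.2 FPKM in hdt1 and 70.9 FPKM in the wild type. For rpl32 the interval lay below 1, at 1.14-fold lower (1.11 to 1.18).

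Towards the ends of the class, log2 ratios were 0.45 for rpl20 and 0.31 for rps4, and −0.46 for rps15, −0.31 for rps2 and −0.19 for rpl32. Of the members not compared, rps16 had 5 reads in hdt1 and 4 in the wild type, and rpl2 had none in hdt1 and 1 in the wild type. The gene rpl2 lies in the inverted repeat, where reads of its copies cannot be told apart.

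The chloroplast encodes the 4 core subunits of its bacterial-type RNA polymerase. The alpha subunit gene rpoA was at 15.8 FPKM in hdt1 and 14.7 FPKM in the wild type (fold 1.08, 0.922 to 1.25). The beta subunit gene rpoB was at 1.54 FPKM in hdt1 and 1.17 FPKM in the wild type (fold 1.31, 0.977 to 1.76). For rpoC1 the values were 1.06 FPKM in hdt1 and 0.586 FPKM in the wild type, 1.81-fold higher (1.11 to 3.03) but under the limit for comparison. With 0.199 FPKM in hdt1 and 0.234 FPKM in the wild type, rpoC2 was the lowest of the class. The level of rpoA was thus well above those of the other 3 subunit genes.

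Among the remaining protein genes, clpP, a protease subunit, was at 36.2 FPKM in hdt1 and 34.9 FPKM in the wild type (fold 1.04, 0.912 to 1.18). For ycf1, a large protein linked to protein import, the values were 17.2 FPKM in hdt1 and 18.9 FPKM in the wild type, 1.1-fold lower (1.03 to 1.16). The gene accD, for a subunit of acetyl-CoA carboxylase in fatty acid synthesis, was at 1.51 FPKM in hdt1 and 0.878 FPKM in the wild type, 1.72-fold higher (1.06 to 2.83). With a wild-type level under 1 FPKM, accD was compared only because of its level in hdt1. Intervals of cemA (fold 1.25), of the photosystem I assembly factor ycf4 (fold 1.29) and of ccsA, which serves cytochrome c maturation and was 1.24-fold lower, include 1. The 4 members with no name, ATCG00360, ATCG00065, ATCG01050 and ATCG00040, were at 1.67 to 6.14 FPKM in hdt1 and at 1.11 to 5.19 FPKM in the wild type, and their intervals include 1.

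Transfer RNA genes held the widest range of log2 ratios of any class, from −0.63 to 1.49. Of 22 members 19 were compared, 11 above 0 and 8 below, with a median log2 ratio of 0.14 and 3 past 2-fold. The tRNA-Phe gene trnF was at 15.4 FPKM in hdt1 and 5.04 FPKM in the wild type, 3.06-fold higher (1.35 to 7.82), from 26 and 8 reads. The other two past 2-fold, ATCG00260 (trnT) and trnfM, had 6 reads each in hdt1 and 1 each in the wild type, and the interval of either fold reaches from 0.686 to 260. Over the 6 tRNA genes with a mean of at least 50 reads the median log2 ratio was −0.21.

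At higher counts, the tRNA-Val gene trnV was 1.58-fold higher in hdt1 (1.1 to 2.29), from 84 and 50 reads. The tRNA-Thr gene ATCG00390 was 1.31-fold lower (1.2 to 1.44), from 856 and 1059 reads, and ATCG00620 was 1.56-fold lower (1.2 to 2.02), from 103 and 151 reads. The lowest log2 ratio of all compared members, −0.63, was that of ATCG00620. The tRNA-Leu gene ATCG00400 was at 169 FPKM in hdt1 and 186 FPKM in the wild type, with an interval that includes 1. Mature tRNAs are shorter than the selected fragments, so a read counted here may stem from a longer precursor or a neighbouring transcript, which was not tested.

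Genes were also set side by side by transcription unit, using 15 units listed from general knowledge of the plastid genome and not from these reads. The psbB unit had the highest median of these units, 0.97, which is the value of psbT, from 23 and 10 reads. All 5 of its genes, psbB, psbT, psbH, petB and petD, were above 0, at 0.57, 0.97, 1.13, 1.01 and 0.57 on the log2 scale, and its reads were 1.71-fold higher in hdt1 (1.55 to 1.88). In the psaA unit, psaA (0.94) and psaB (0.91) differed alike, while the last gene, rps14, stood at 0.16 with 19.6 FPKM in hdt1 and 17.5 FPKM in the wild type. By summed reads the psaA unit stood above the psbB unit, at 1.90-fold higher in hdt1 (1.72 to 2.09).

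The ndhC unit was below 0 at each of its 3 genes, ndhC, ndhK and ndhJ (−0.22, −0.38 and −0.40), and the atpB unit at both of its genes (−0.14 each). In the atpI unit the first gene, rps2, had the lowest log2 ratio (−0.31), with 19 reads in hdt1 and 26 in the wild type, and the 4 genes after it were above 0. Of the 7 genes listed for the ndhH unit, 6 were named members. They ran from 0.01 at ndhH to 1.12 at psaC, which is the photosystem I gene in it. The psbD unit ranged from 0.05 at psbD to 0.48 at psbC, the psaI unit from −0.03 at petA to 0.64 at psaI, and the psbE unit from 0.02 at psbJ to 1.16 at psbL.

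**Figure D4:**
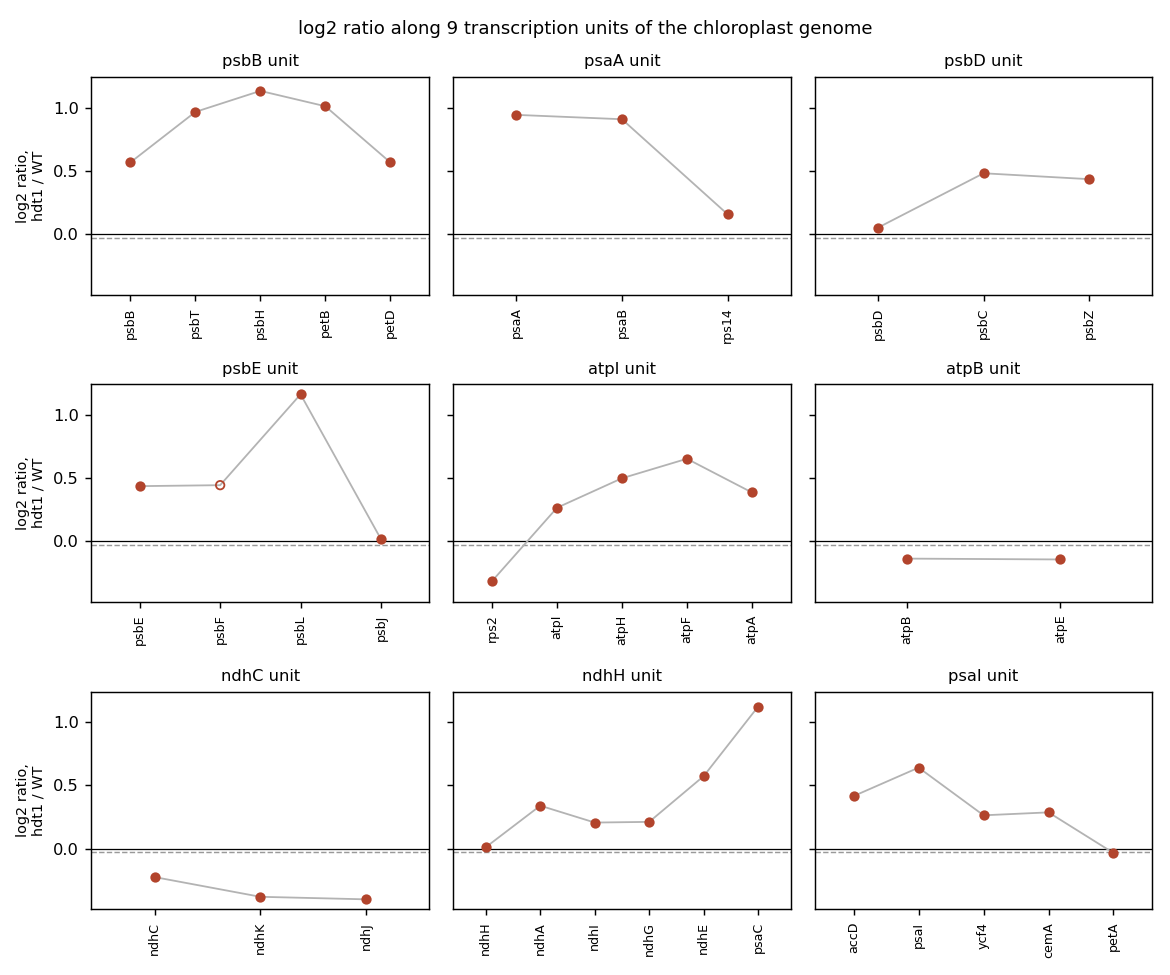
Log2 ratio of hdt1 over wild type, with 1 FPKM added, for the genes of 9 of the 15 transcription units in their order of transcription, 1 panel per unit. Filled points are compared genes, open points genes with a mean under 1 FPKM, and the dashed line is the median of all loci. The psbB unit lies above 0.5 throughout, and the ndhC and atpB units lie below 0 throughout.

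Nuclear genes of the antenna, Rubisco, NDH, cytochrome b6f and ATP synthase had medians below 0, although single genes were higher. Apart from antenna genes, nuclear genes of the photosystems were not listed. Of 13 antenna genes of the LHCA and LHCB families, which carry light energy to the photosystems, 11 were below 0, with a median log2 ratio of −0.20 and summed levels of 14434 FPKM in hdt1 and 16523 FPKM in the wild type. The exceptions were LHCB1.1 (1.18-fold higher, 1.15 to 1.21) and LHCB2.1 (1.17-fold higher, 1.13 to 1.2). Summed levels of the 33 chloroplast photosynthesis genes were also lower in hdt1, with 8738 FPKM in hdt1 and 9124 FPKM in the wild type. Of these sums, psbM alone held 6470 FPKM in hdt1 and 7261 FPKM in the wild type. By reads per total, the same 33 genes were instead 1.14-fold higher in hdt1 (1.13 to 1.15). The 4 Rubisco small subunit genes had a median of −0.10, and RBCS1A was at 2154 FPKM in hdt1 and 2289 FPKM in the wild type, 1.06-fold lower (1.05 to 1.08). RBCS3B went the other way, with 979 FPKM in hdt1 and 872 FPKM in the wild type, 1.12-fold higher (1.1 to 1.14). Of 17 nuclear NDH genes 15 were below 0, with a median of −0.17. Of their 17 intervals 7 lay below 1 (background 27.7% of all loci) and 0 above it (23.8%). The largest differences there were NdhL (1.53-fold lower, 1.15 to 2.05), PnsL2 (1.39-fold lower, 1.2 to 1.61) and PnsL3 (1.40-fold lower, 1.14 to 1.71).

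The nuclear cytochrome b6f genes were lower as well, PETC, the Rieske protein, 1.17-fold (1.13 to 1.2) and AT2G26500, the petM subunit, 1.3-fold (1.26 to 1.34). Of 3 nuclear ATP synthase genes ATPD was 1.16-fold lower (1.11 to 1.22), PDE334 1.08-fold lower (1.04 to 1.13), and the interval of ATPC1 includes 1. No gene of these 5 lists was 2-fold higher or lower. The median of each list stayed below 0 under the 4 other scalings.

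Among nuclear genes that act on chloroplast transcription, most sigma factors were close to level and most polymerase-associated proteins had log2 ratios below 0. Of 6 sigma factors 5 were above 0, with a median log2 ratio of 0.04. SIG4 was the exception in size, with 21.6 FPKM in hdt1 and 14.2 FPKM in the wild type, 1.52-fold higher (1.35 to 1.72). The sigma factor at AT2G36990 (SIGF) was 1.13-fold lower (1.04 to 1.23). Of 12 proteins associated with the bacterial-type polymerase 11 were below 0, with a median of −0.21, among them TRX z (1.36-fold lower, 1.13 to 1.63) and PTAC7 (1.31-fold lower, 1.12 to 1.54). Of their 12 intervals 5 lay below 1 (background 27.7% of all loci) and 1 above it (23.8%). The phage-type polymerase genes SCA3 and AT5G15700 were 1.02-fold and 1.14-fold lower, and the log2 ratio of SCA3, −0.02, turned positive under other scalings.

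Of 14 nuclear factors of chloroplast RNA processing and stability 9 were below 0, and their median, −0.05, turned positive under 3 of 4 other scalings. Of their 14 intervals 5 were entirely under 1 (background 27.7% of all loci) and 2 entirely over it (23.8%). HCF173, which binds psbA RNA, was at 20.6 FPKM in hdt1 and 16.9 FPKM in the wild type, 1.22-fold higher (1.0 to 1.47). The gene emb2746, for the ribonuclease RNase J, was 1.2-fold higher (1.08 to 1.32). RNA-binding proteins of the chloroplast were lower, RBP31 1.2-fold (1.15 to 1.25) and CP33 1.18-fold (1.12 to 1.24).

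**Figure D5:**
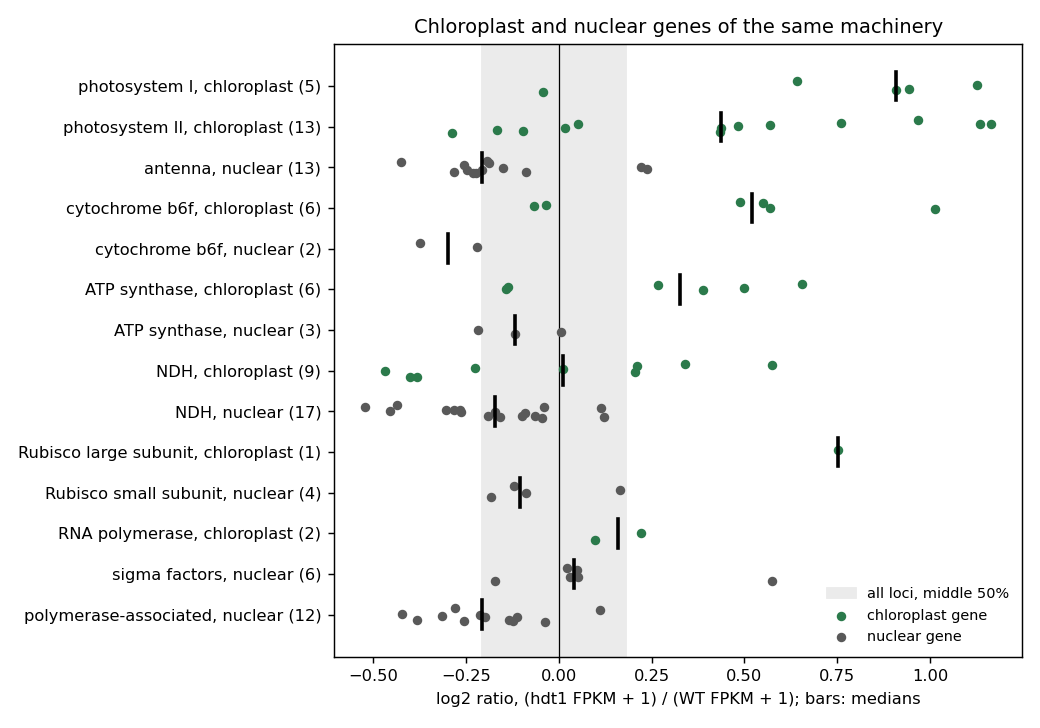
Log2 ratio of hdt1 over wild type, with 1 FPKM added, for chloroplast genes (green) and nuclear genes (grey) of the same machinery, with bars for medians, the number of genes in brackets and a grey band for the middle 50% of all loci. Chloroplast medians of the photosystems, cytochrome b6f, ATP synthase and Rubisco lie at 0.33 to 0.91. Nuclear medians of the antenna, cytochrome b6f, ATP synthase and Rubisco small subunit lie at −0.10 to −0.30.

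Windows from 250 bases before to 50 bases after each gene start were searched on both strands for the letters TTGACA and TATAAT, those of the upstream and downstream elements of bacterial promoters. Of the 129 RefSeq chloroplast genes 26 held TTGACA (20.2%) and 50 held TATAAT (38.8%). Of the 33 photosynthesis members 3 held TTGACA and 16 held TATAAT, and of the 18 ribosomal protein members 4 and 8. A match is a description of the letters and not of a promoter. Of the 92 members with a position, 74 had no 50-base window that also occurs in the nuclear or mitochondrial sequence and 18 had at least 1, and all of them are included in the values above.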

How the data were processed

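The authors deposited FPKM values (fragments scaled to gene length and library total) for both libraries in 1 table of 33669 features, per the file headers. The submitters' processing notes list the tools HTSeq 0.6.1, TopHat2 2.0.12 and Bowtie2 2.2.3. Their settings, the genome build, the annotation, strand and any poly(A) selection were not given in the sources used here. The 67 features without a locus identifier were left out.

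From the FPKM values, library totals and reads per gene were recovered as the whole numbers that give whole gene lengths, tested on simulated data. Nuclear genes use the smallest such numbers where the annotated length gave none, so recovered reads sum to 90.5% of the hdt1 total and 90.7% of the wild-type total, and nuclear intervals are, if anything, too wide. Log2 ratios are of (hdt1 FPKM + 1) to (wild-type FPKM + 1) at a mean of at least 1 FPKM, with a limit of 2-fold. Members, gene lists and units were chosen with earlier results of these data known. Named genes are every rpo gene, psbA, rbcL, accD, clpP and ycf1, up to 4 of each class by level and up to 3 by either extreme of the log2 ratio, every member of the units described, and up to 4 genes of each nuclear list. Others were added after their values were seen, which holds for trnV, trnG, rps16, psbN, ccsA, LHCB1.1 and LHCB2.1. Some genes that the rule names are not reported here. Python 3.11.15, numpy 2.4.6, pandas 2.3.3, scipy 1.17.1 and matplotlib 3.10.9 were used.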

Additional observations from a re-analysis of the deposited data

How the results depend on the processing

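The count of chloroplast genes at least 2-fold higher, 7 as reported, was 13 with 0.1 FPKM added (3.66% of all loci), 1 with 5 FPKM added (0.938%), 4 without tRNA genes, 18 at a limit of 1.5-fold (7.04% of all loci) and 1 among members with a mean of at least 50 reads, a limit added after the data were seen. The count at least 2-fold lower was 0, and 1 at 1.5-fold. Shares of all loci were not computed for 1.5-fold lower or for the limit of 50 reads. By construction these settings alter the genes counted, the added FPKM or the limit. Among members with a mean of at least 50 reads, the tRNA median of 0.14 was −0.21, the NDH median of 0.01 was −0.38 and the photosystem II median of 0.44 was 0.24. At a mean of at least 5 FPKM the tRNA median was −0.077 and the NDH median −0.38. The log2 ratio of rbcL, 0.75, was 0.76 and 0.70 with 0.1 and 5 FPKM added, 0.81 under equal FPKM sums, 0.80 centred on nuclear genes, 0.79 under equal sums without the most abundant and organelle genes and 0.83 within the chloroplast genome. The RNA polymerase median of 0.16 was 0.23 and 0.081 with 0.1 and 5 FPKM added and 0.22 within the chloroplast genome. The chloroplast share was 0.277% in the hdt1 library and 0.256% in the wild-type library from FPKM times annotated length, and 0.335% in the hdt1 library and 0.308% in the wild-type library without tRNA and rRNA genes. Of 146 recomputed values 126 stayed within 1.5 times the count or within the counting or order-statistic interval. These include the NDH and photosystem II medians above and the tRNA median at 5 FPKM. For a class of few genes the interval spans most of its range and is a weak standard. Within it the NDH and tRNA medians changed sign. No class median was past the 2-fold limit, so a sign change past that limit could not arise for the medians. Of single genes, 415 of 430 recomputed log2 ratios stayed within their counting interval. Scalings moved the median of all loci by at most 0.07, and 5 members below 0, petA, psaJ, rpl33, rpl14 and rpl16, were above 0 under at least 1 of them. No paired analysis was possible because there was 1 library per genotype, and for the same reason no replicate could be left out. Depth limits the 45 members with a mean under 50 reads, 962 reads in the hdt1 library and 637 in the wild-type library in all.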
